A study of Sus scrofa with 12 samples.

Results

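In this comparison 3 libraries of KPT-treated Stage 3 cells were set against 3 libraries of Stage 1 cells, 6 of the 12 RNA-seq libraries of a study of calcification in pig aortic valve interstitial cells. In every group the cells had been cultured in DMEM on glass, which the labels name as the stimulus of calcification. The Stage 3+KPT cultures had been given KPT once Stage 3 was reached, and the Stage 3+DMSO cultures had been given DMSO at the same stage. Stage 1 libraries are labelled day 5 and Stage 2 libraries day 8, and neither group is described as having received KPT or DMSO. The protocol gives growth for 5, 8 or 12 days according to when a stage appeared. The day of the Stage 3 groups, the dose of KPT, the length of the exposure and the full name of the compound do not appear in the labels. Stage 3+KPT and Stage 1 thus differed in growth time and in treatment together, which cannot be told apart in this pair of groups, so the Stage 3+DMSO value is given beside the main results. The labels call the 3 libraries of each group biological replicates without saying whether they came from separate animals or cultures, and p-values here reflect only how these libraries vary, which may be partly technical. Of 22861 genes in the deposited gene table, 13046 reached 1 RPKM (reads per kilobase of exon, scaled to the library total) in at least 3 of the 12 libraries and were tested. Each tested gene was placed by where its level under KPT stood: back at Stage 1, still at Stage 3, or outside the range of every untreated stage, a term that here covers Stage 1, Stage 2 and Stage 3+DMSO.

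Valve interstitial cells are the fibroblast-like cells that fill the valve leaflet and make its collagen, elastic and proteoglycan layers. On stiff surfaces they become activated, with actin stress fibres and smooth-muscle-type contractile proteins, and in calcific disease some take on bone-type genes such as RUNX2 while nodules of mineral form around dying cells. Secreted inhibitors such as MGP, the matrix Gla protein, hold mineral back. Several compounds with the code prefix KPT are known as inhibitors of XPO1, the receptor that carries proteins with a leucine-rich export signal, p53 among them, out of the nucleus. The labels do not say which KPT compound was used here.

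The library totals implied by the deposited RPKM values were 14001872 to 24724019 reads under KPT and 13188023 to 20731206 at Stage 1. Within groups the libraries correlated at r of 0.985 to 0.994 across tested genes, and no pair agreed within sampling noise. The first principal component held 59.4% of the variance and set the KPT libraries, at 69.6 to 71.6, apart from all 9 untreated libraries, at -32.8 to -12.1. The second held 17% and followed the untreated stages, with Stage 1 at -27.7 to -26.2, Stage 2 at -3.93 to 1.10 and Stage 3+DMSO at 33.4 to 36.3, and the KPT libraries lay at -7.54 to -4.70. One untreated library stood apart in interferon-induced genes: IFIT1 had 63.7 RPKM in Stage 3+DMSO replicate 1, against 3.73 and 4.46 RPKM in replicates 2 and 3. The counts of the classes defined below are therefore also given without that library. The cells carried the markers of valve interstitial cells: 13 of 13 on the list were tested, and their summed level was 14202 to 15007 RPKM under KPT and 20619.8 to 21553 RPKM at Stage 1. Of these markers 4 were higher and 8 lower under KPT, among them VIM, the intermediate filament vimentin, at 4606 ± 198 RPKM under KPT and 8771 ± 263 RPKM at Stage 1 (here and below, ± is the SD over the 3 libraries of a group). The 11 endothelial markers in the table summed to 14.0 to 18.7 RPKM under KPT and 23.6 to 24.3 RPKM at Stage 1. The 11 leukocyte markers summed to 269 to 308 RPKM and 247 to 286 RPKM, with ITGAM at 0 in all 6 libraries and 8 of the 11 too low to be tested. CD14 was called higher under KPT, by 0.75 on the log2 scale, and the part of such cells in the results was not tested. The 5 epithelial markers summed to at most 0.0953 RPKM under KPT and 0.234 RPKM at Stage 1. The median gene had a log2 ratio of last to first exon of 0.485 ± 0.031 under KPT and 0.407 ± 0.013 at Stage 1 (SD, n = 3 each; p = 0.1 in a two-sided exact permutation test, the lowest value possible with 3 libraries a group), and its part in the results was not tested. In bulk RNA, fewer cells of a type and less RNA per cell cannot be told apart.

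Most of the transcriptome differed between KPT-treated Stage 3 and Stage 1 cells. With limma on log2(RPKM + 1), fitted over all 12 libraries and with Benjamini-Hochberg adjustment over all tested genes, 8715 of 13046 genes (66.8%) passed an adjusted p of 0.05. Of these 5144 were higher under KPT (39.4% of those tested) and 3571 were lower (27.4%). A difference of at least 2-fold was reached by 1367 genes that were higher (10.5%) and 1120 that were lower (8.59%). Between Stage 3+DMSO and Stage 1, which share the Stage 1 libraries with this comparison, 6226 genes (47.7%) passed, 965 of them (7.4%) with at least 2-fold. KPT differed from Stage 2 in 8801 genes (67.5%), in 2303 (17.7%) by at least 2-fold, and from Stage 3+DMSO in 7831 genes (60%), in 1877 (14.4%) by at least 2-fold. For 9582 genes (73.4%) the 3 KPT libraries and the 3 Stage 1 libraries did not overlap. The median size of the log2 difference from Stage 1 was 0.472 under KPT and 0.289 in Stage 3+DMSO. Between KPT and Stage 2 it was also 0.472, and between KPT and Stage 3+DMSO 0.385. The KPT libraries differed from the Stage 1 mean by a root mean square of 0.936 to 0.949 on the log2 scale, from the Stage 2 mean by 0.885 to 0.902 and from the Stage 3+DMSO mean by 0.823 to 0.847. By the root mean square, though not by the median, Stage 1 was the farthest of the untreated stages from each KPT library. The median log2 difference over all tested genes was 0.126, and rescaling the libraries by median ratios moved it by -0.122 and the share of higher genes among those called to 49.9%, against 59.0% as deposited. List medians below are to be read against that median of 0.126, which is the value for all genes. Counts of list members called higher or lower are to be read against 39.4% and 27.4%, the shares of all tested genes.

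**Figure D1:**
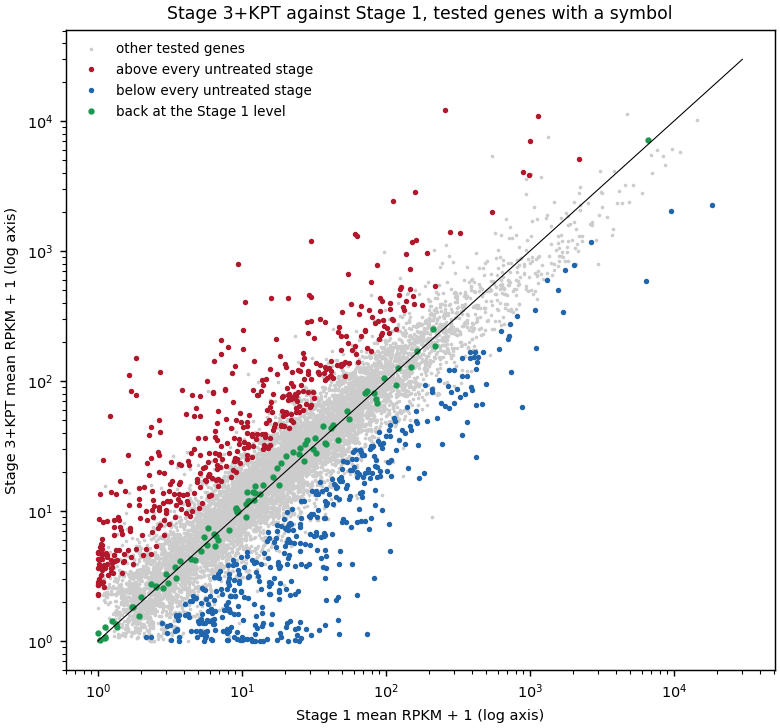
Mean RPKM + 1 in Stage 3+KPT (vertical) against Stage 1 (horizontal), both on log axes, for the tested genes that carry a symbol, with 1 point a gene and the line of equality. Genes above every untreated stage (red) and below every untreated stage (blue) lie away from the line over the whole range of levels, and genes back at the Stage 1 level (green) lie near it.

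For 4564 genes (35.0%) the 95% confidence interval of the difference from Stage 1 lay wholly within 1.5-fold in either direction, and 4469 of these had not changed by 2-fold between Stage 1 and Stage 3+DMSO either. Of the 4564, 3045 were not called against Stage 1, and the rest were called with a difference under 1.5-fold. Only the 965 genes called with at least 2-fold between Stage 1 and Stage 3+DMSO could count as back at Stage 1. Of these, 95 (9.84%) met the full rule. Out of all tested genes, 555 (4.25%) were above every untreated stage and 536 (4.11%) were below every untreated stage. The rule for both required a call against each of Stage 1, Stage 2 and Stage 3+DMSO, at least 2-fold against each, and no overlap between the 3 KPT libraries and the 9 untreated ones. Without Stage 3+DMSO replicate 1 the 2 counts were 557 and 538. Of the 555 genes above, 118 averaged under 1 RPKM at Stage 1, and of the 536 below, 144 averaged under 1 RPKM under KPT. The 3 comparisons behind these classes share the KPT libraries, so the counts describe a rule and were not tested.

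XPO1 itself was above every untreated stage. Its level was 116, 97.3 and 137 RPKM under KPT, against 30.7, 33.8 and 34.5 RPKM at Stage 1, a log2 difference of 1.78 (SE 0.16, adjusted p = 6.4e-07). It averaged 26.8 ± 6.29 RPKM at Stage 2 and 23.7 ± 2.69 RPKM in Stage 3+DMSO (SD, n = 3 each), so the untreated stages lay close together and all below the lowest KPT library. The 28 tested nuclear transport genes, XPO1 included, did not move as a group: 9 were higher and 10 lower, against 39.4% and 27.4% of all tested genes, and median-ratio rescaling made that 7 and 14. KPNB1, the importin beta that brings most cargo into the nucleus, fell to 53.3 ± 2.77 RPKM under KPT, against 134 ± 5.51 RPKM at Stage 1. IPO5, another importin, fell by 1.22 on the log2 scale, and among the receptors that rose were XPO4, an exportin (0.96), and TNPO1, an importin of RNA-binding proteins (0.70).

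The most abundant gene per length differed between the groups. CTSL, a lysosomal cysteine protease, was the most abundant gene per length under KPT, at 11874, 12949 and 11869.7 RPKM, and ranked 573 at Stage 1, at 264, 265 and 241 RPKM. No untreated library came near: the Stage 2 mean was 301 ± 38.4 RPKM and the Stage 3+DMSO mean 298 ± 136 RPKM (SD, n = 3 each), and the log2 difference from Stage 1 was 5.57 (SE 0.25, adjusted p = 9.8e-10). CTSK, the cathepsin that cleaves collagen, had 11217, 11769 and 10073 RPKM under KPT and 1123, 1124 and 1168 RPKM at Stage 1. CTSB, another cathepsin, had 6464, 7819 and 6979 RPKM and 998, 1006 and 989 RPKM. The KPT and Stage 1 libraries did not overlap for any of the 3 cathepsins, as for 73.4% of all tested genes. The Stage 3+DMSO values were 2401 ± 433 RPKM for CTSK and 2513 ± 142 RPKM for CTSB. Among other cathepsins CTSZ rose by 0.59 on the log2 scale and CTSS did not pass (-0.05). At the other end, ACTA2, smooth muscle actin and the standard marker of an activated interstitial cell, was the most abundant gene per length at Stage 1, at 17824, 18548 and 18957 RPKM, and ranked 45 under KPT, at 2445, 2388 and 1999.8 RPKM.

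Lysosomal and autophagy genes rose broadly. Of 22 tested, 19 were higher under KPT than at Stage 1 and 2 were lower, with a median log2 difference of 1.33, against 0.853 in Stage 3+DMSO minus Stage 1 for the same genes. ULK1, the kinase that starts autophagy, was above every untreated stage at 96.3 ± 4.37 RPKM under KPT, against 20.8 ± 1.20 RPKM at Stage 1 and 30.3 ± 0.630 RPKM in Stage 3+DMSO. The members that fell were WIPI1, a protein of the early autophagosome membrane, at 40.7 ± 3.44 RPKM under KPT and 77.9 ± 8.06 RPKM at Stage 1, and TFEB, a transcription factor for lysosomal genes, at 9.28 ± 0.716 RPKM and 13.6 ± 1.36 RPKM. FTL, the ferritin light chain that stores iron, had 7609 ± 741 RPKM under KPT, 1329 ± 102 RPKM at Stage 1 and 4208 ± 76.4 RPKM in Stage 3+DMSO. The NRF2 targets as a list did not share its direction: 5 of 15 were higher and 5 lower, against 39.4% and 27.4% of all genes.

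Genes of dividing cells fell. All 18 tested mitosis genes were lower than at Stage 1, against 27.4% of all tested genes, by a median of -3.66 on the log2 scale. Of these, 17 were below every untreated stage, against 4.11% of all tested genes. The same list had a median of -0.337 in Stage 3+DMSO minus Stage 1. The summed level of the list was 41.6 to 43.7 RPKM under KPT and 573 to 643 RPKM at Stage 1. CCNB1, the cyclin that drives entry into mitosis, had the largest fall of all named genes, with 0.234, 0.148 and 0.0189 RPKM under KPT and 81.0, 67.8 and 72.0 RPKM at Stage 1 (log2 difference -6.04, SE 0.14, adjusted p = 8.5e-12). In Stage 3+DMSO it had 52.1, 40.3 and 32.3 RPKM, so every untreated library stayed far above the KPT libraries. TOP2A, the topoisomerase that untangles replicated chromosomes, had 0.137, 0.229 and 0.311 RPKM under KPT and 39.0, 30.8 and 30.5 RPKM at Stage 1. KIF20A and KIFC1, motor proteins of the spindle and of cell division, fell by 5.37 and 4.50 on the log2 scale, and AURKB, a kinase of chromosome segregation, by 4.45. Proliferation markers were at the edge of detection: MKI67 had 2 reads over the 3 KPT libraries together and averaged 12.4 ± 1.52 RPKM at Stage 1, and BUB1B, a spindle checkpoint kinase, had no read under KPT, at least 457-fold lower than at Stage 1 when 3 reads over the group are taken as the floor.

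DNA replication genes fell with them, with 1 exception. Of 16 tested, 14 were lower under KPT and 1 was higher, with a median of -1.32. MCM4, a subunit of the replicative helicase, had 2.50, 2.81 and 2.55 RPKM under KPT and 41.1, 35.8 and 36.3 RPKM at Stage 1, and MCM2 and MCM3 of the same complex fell by 2.91 and 3.58 on the log2 scale. The exception was PCNA, the sliding clamp of DNA polymerase, which is also known as a p53 target, with 129, 127 and 124 RPKM under KPT, against 33.6, 35.9 and 40.4 RPKM at Stage 1. PCNA was above every untreated stage, and its Stage 3+DMSO mean was 59.3 ± 8.95 RPKM. MYBL2, a transcription factor of cell-cycle genes, fell to 1.27 ± 0.592 RPKM under KPT, against 62.3 ± 1.72 RPKM at Stage 1. LMNB1, a lamin of the nuclear envelope that is known to be lost in senescent cells, fell to 1.17 ± 0.454 RPKM, against 45.8 ± 3.69 RPKM.

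Genes that p53 is known to switch on rose. Of 22 tested, 18 were higher under KPT and 1 was lower, against 39.4% and 27.4% of all tested genes. Their median was 1.60, against 0.316 in Stage 3+DMSO minus Stage 1. Of the 22, 10 were above every untreated stage, against 4.25% of all tested genes. MDM2, the ligase that marks p53 for degradation, had 477, 435 and 419.8 RPKM under KPT and 30.2, 26.5 and 30.5 RPKM at Stage 1 (log2 difference 3.89, SE 0.09, adjusted p = 8.3e-12). It also rose in Stage 3+DMSO, to 64.2 ± 5.08 RPKM, which was far short of the KPT libraries. FAS, a death receptor, had 149, 132 and 142 RPKM under KPT and 5.56, 6.33 and 4.44 RPKM at Stage 1, and its Stage 3+DMSO mean was 8.54 ± 0.954 RPKM. ZMAT3, an RNA-binding protein, rose by 2.87 on the log2 scale and TP53INP1, a stress-induced regulator of p53, by 2.84. The member that fell was DDB2, a sensor of damaged DNA, at 21.7 ± 1.67 RPKM under KPT and 47.7 ± 3.60 RPKM at Stage 1. CDKN1A, the best known p53 target, was not analysed here.

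Feedback inhibitors and targets of MAP kinase signalling rose, with 2 of the 4 tested ligands of the EGF receptor. Of 15 tested genes on this list, 13 were higher under KPT and none was lower (0 also at an unadjusted p of 0.05 in limma and in limma-voom on recovered reads), with a median of 1.61, against -0.0188 in Stage 3+DMSO minus Stage 1. AREG, an EGF receptor ligand, had 1252, 1109 and 1222 RPKM under KPT, against 29.9, 31.6 and 26.9 RPKM at Stage 1 and 11.6, 4.18 and 5.27 RPKM in Stage 3+DMSO. EREG, a second ligand, had 46.8, 38.2 and 32.9 RPKM under KPT and 1.71, 1.37 and 2.06 RPKM at Stage 1. Both were lower in Stage 3+DMSO than at Stage 1 and above Stage 1 under KPT, and the 3 groups of libraries did not overlap. The feedback inhibitor SPRY1 had 199, 207 and 210.2 RPKM under KPT and 5.96, 6.13 and 6.27 RPKM at Stage 1, and DUSP4, a MAP kinase phosphatase, rose by 3.43 on the log2 scale. HBEGF, a further ligand, did not pass, at 9.14, 7.82 and 8.89 RPKM under KPT and 6.35, 10.3 and 6.24 RPKM at Stage 1, with overlapping groups, and nor did the ligand BTC, betacellulin, with a log2 difference of -0.41. Of 18 immediate early factors, 14 were higher and 4 lower (median 0.899): NR4A2, an orphan nuclear receptor, had 435, 419 and 451 RPKM under KPT and 14.2, 16.1 and 14.8 RPKM at Stage 1, and ATF3, a stress-induced repressor, averaged 113 ± 8.72 RPKM and 16.6 ± 0.255 RPKM. The 4 that fell were MYC, which drives growth and ribosome production (-1.81), SRF, which drives actin and contractile genes (-1.21), the zinc finger factor KLF6 (-1.07) and FOSL1, a subunit of AP-1 (-0.37), which no longer passed in limma when Stage 1 replicate 2 was left out (adjusted p = 0.0756) or Stage 3+KPT replicate 3 (adjusted p = 0.0563).

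Chemokines and cytokines rose with them. Of 21 tested genes of NF-kB feedback and cytokines, 16 were higher under KPT and 1 lower, with a median of 0.713, against -0.212 in Stage 3+DMSO minus Stage 1. CXCL2, a neutrophil chemoattractant, had 135, 111 and 104 RPKM under KPT and 1.65, 1.92 and 1.56 RPKM at Stage 1, and CXCL8, another, had 90.3, 80.4 and 71.1 RPKM and 5.27, 4.42 and 6.17 RPKM. AMCF-II, a pig chemokine of the same kind, rose by 4.68 on the log2 scale, and BIRC3, an inhibitor of apoptosis induced by NF-kB, by 3.10. PTGS2, the inducible enzyme of prostaglandin synthesis, had 1459, 1279 and 1453 RPKM under KPT, 257, 326 and 252 RPKM at Stage 1 and 61.4, 54.6 and 55.6 RPKM in Stage 3+DMSO. It went down with the untreated course and lay above its starting level under KPT, with no overlap between the 3 groups. IL6, an inflammatory cytokine, did the same, with 371 ± 24.6 RPKM under KPT, 130.1 ± 8.96 RPKM at Stage 1 and 22.4 ± 6.21 RPKM in Stage 3+DMSO, but a separate entry named IL-6 showed the same pattern and the 2 may share reads, so the level of either is uncertain. The member that fell was NFKBIZ, an IkB-type nuclear regulator, at 23.0 ± 0.949 RPKM under KPT, 112 ± 7.38 RPKM at Stage 1 and 46.3 ± 10.6 RPKM in Stage 3+DMSO. Interferon-induced genes mostly did not pass, with 3 of 19 higher and 1 lower in the fit over all 12 libraries, and 4 higher and 4 lower without the Stage 3+DMSO library that stood apart.

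RGS4, which shortens G-protein signals, rose most of all named genes, with 762, 723 and 895 RPKM under KPT and 7.14, 11.1 and 6.98 RPKM at Stage 1 (log2 difference 6.42, SE 0.25, adjusted p = 2.8e-10). In Stage 3+DMSO it had 40.4, 95.5 and 75.9 RPKM, already above Stage 1 and well below KPT. RGS5 of the same family had 47.1, 48.0 and 63.6 RPKM under KPT and 0.111, 0.372 and 0.165 RPKM at Stage 1. DIO2, the enzyme that activates thyroid hormone, had 420.4, 390.3 and 400.4 RPKM under KPT, 8.40, 10.5 and 9.81 RPKM at Stage 1 and 0.371, 2.02 and 3.10 RPKM in Stage 3+DMSO. HSD3B1, an enzyme of steroid synthesis, and NPPB, the precursor of B-type natriuretic peptide, went the same way as DIO2, lower than Stage 1 in Stage 3+DMSO and above it under KPT. HSD3B1 had 67.9, 84.2 and 99.6 RPKM under KPT and 2.33, 3.25 and 2.94 RPKM at Stage 1, and NPPB had 39.9, 51.9 and 55.1 RPKM and 1.92, 1.29 and 1.80 RPKM. RLN3, a relaxin-type peptide, CHI3L2, a chitinase-like secreted protein, and GKN3, a gastrokine, rose by 6.16, 6.36 and 5.63 on the log2 scale, each with under 2 RPKM in all 3 Stage 1 libraries. MDK, the growth factor midkine, had 1222, 1450.1 and 1241 RPKM under KPT and 61.6, 63.0 and 62.7 RPKM at Stage 1, P2RY1, an ADP receptor, rose by 4.52, and WNT5A, a Wnt ligand, by 4.07.

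**Figure D2:**
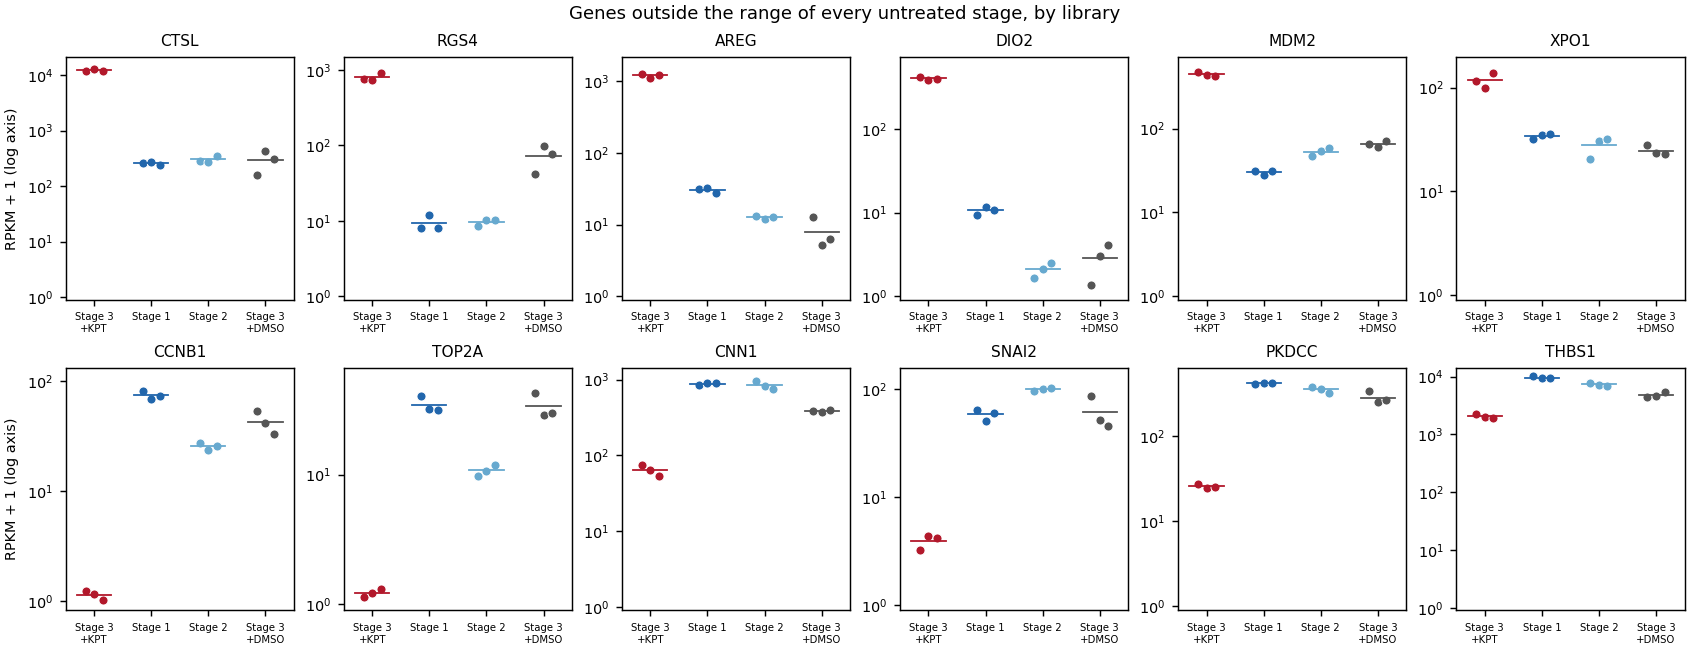
RPKM + 1 on a log axis for 12 genes, with 1 point a library, the bar at the group mean and Stage 3+KPT leftmost, followed by Stage 1, Stage 2 and Stage 3+DMSO. In the top row all 3 KPT libraries lie above all 9 untreated libraries, as with CTSL at 11870 to 12949 RPKM, and in the bottom row they lie below, as with CCNB1 at 0.0189 to 0.234 RPKM.

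Contractile genes of activated interstitial cells fell. Of 16 tested, 15 were lower under KPT than at Stage 1 and 1 was higher, against 27.4% and 39.4% of all tested genes. Their median was -1.86, against -0.771 in Stage 3+DMSO minus Stage 1. Of the 16, 9 were below every untreated stage, against 4.11% of all tested genes. CNN1, calponin of smooth muscle, had 72.8, 62.2 and 51.7 RPKM under KPT, 856, 893 and 892 RPKM at Stage 1 and 385, 373 and 395 RPKM in Stage 3+DMSO. ACTA2 had 9892, 8014 and 7806 RPKM in Stage 3+DMSO, between its KPT and Stage 1 values, and TPM1, a tropomyosin, averaged 589 ± 82.9 RPKM under KPT, 6399 ± 138 RPKM at Stage 1 and 3072 ± 316 RPKM in Stage 3+DMSO. CNN1, ACTA2 and TPM1 were lower in Stage 3+DMSO than at Stage 1 and lower still under KPT. DES, the muscle intermediate filament desmin, was under 1 RPKM in every KPT library and averaged 45.5 ± 3.68 RPKM at Stage 1 and 126 ± 25.2 RPKM at Stage 2. The one contractile-list gene that rose was FHL1, a LIM protein of the sarcomere and stress fibre, at 294 ± 11.4 RPKM under KPT and 210.2 ± 2.64 RPKM at Stage 1. SNAI2, a transcription factor of mesenchymal cells, had 2.28, 3.41 and 3.16 RPKM under KPT and 62.7, 49.6 and 58.7 RPKM at Stage 1, and ANKRD1, a stretch-induced gene of muscle and of activated fibroblasts, fell by 4.44 on the log2 scale.

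Collagens, elastic-fibre genes and matricellular proteins were lower more often than higher, while proteoglycan and cartilage matrix genes were split, with 8 of 19 higher and 8 lower. Of 17 tested collagens, 10 were lower and 1 higher (median -0.622): COL5A1, a chain that nucleates collagen fibrils, fell to 339 ± 8.11 RPKM under KPT, against 1698 ± 65.5 RPKM at Stage 1, and COL3A1, a fibrillar collagen of soft tissue, was the one that rose, at 4132 ± 148 RPKM and 3096 ± 215 RPKM, a smaller change than its rise in Stage 3+DMSO, to 5605 ± 1163 RPKM. Of 19 elastic-fibre and cross-linking genes, 12 were lower and 4 higher (median -0.575). LOX, the enzyme that cross-links collagen and elastin, had 110.2, 108 and 105 RPKM under KPT and 339, 336 and 335 RPKM at Stage 1, and EMILIN1, an elastic-fibre protein, fell by 2.01 on the log2 scale. Among matricellular proteins, which signal to cells from the matrix, 9 of 13 were lower and 2 higher. THBS1, thrombospondin and the sixth most abundant gene per length at Stage 1, had 2212, 2010.3 and 1922 RPKM under KPT and 10134, 9397 and 9395 RPKM at Stage 1. POSTN, periostin, went against the list, with 3095, 2843 and 2677 RPKM under KPT, 158, 157 and 164 RPKM at Stage 1 and 929, 1187 and 1089 RPKM in Stage 3+DMSO. CTHRC1, a secreted protein of matrix-producing fibroblasts, fell to 6.93 ± 0.400 RPKM under KPT, against 104 ± 4.77 RPKM at Stage 1 and 243 ± 8.61 RPKM in Stage 3+DMSO.

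The list of matrix proteolysis, which holds proteases and their inhibitors, was mostly higher under KPT. Of 19 tested, 14 were higher under KPT and 3 lower, with a median of 1.08, against 0.307 in Stage 3+DMSO minus Stage 1. PLAT, tissue plasminogen activator, had 2231, 2482 and 2559.9 RPKM under KPT and 107, 116 and 108 RPKM at Stage 1, and PLAU, the urokinase-type activator, moved the other way, with 47.8, 54.1 and 44.3 RPKM and 190.4, 200.2 and 189 RPKM. ADAMTS5, which cleaves the large cartilage proteoglycan, rose by 3.55 on the log2 scale and ADAMTS1 by 2.99, while ADAMTS9 fell by 3.04. The genes that rose included the inhibitors TIMP2, TIMP3 and SERPINE2. TIMP3 and TIMP1, inhibitors of metalloproteinases, went in opposite directions: TIMP3 averaged 989 ± 11.3 RPKM under KPT and 95.7 ± 10.5 RPKM at Stage 1, and TIMP1 1213 ± 71.5 RPKM and 2898 ± 130.4 RPKM. MMP3, stromelysin, reached 7.23 ± 1.04 RPKM under KPT, against 0.0936 ± 0.0179 RPKM at Stage 1.

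Cytoplasmic ribosomal protein genes and cholesterol synthesis genes were mostly lower under KPT. Of 35 tested cytoplasmic ribosomal protein genes, 34 were lower under KPT and none higher (0 also at an unadjusted p of 0.05 in limma and in limma-voom on recovered reads), with a median of -0.891, against -0.135 in Stage 3+DMSO minus Stage 1. RPL3, of the large subunit, had 685, 782 and 684 RPKM under KPT and 1709, 1751 and 1788 RPKM at Stage 1. Ribosome assembly factors did not follow, with 13 of 25 higher and 6 lower, against 39.4% and 27.4% of all tested genes. The split narrowed to 10 and 8 once libraries were scaled by median ratios. Of 21 cholesterol synthesis genes, 16 were lower and 1 higher (median -1.02), and Stage 3+DMSO minus Stage 1 had a median of -0.802 for the same genes. HSD17B7, a reductase of the pathway that also acts on steroids, was the exception, with 173 ± 7.87 RPKM under KPT, 47.8 ± 2.40 RPKM at Stage 1 and 24.3 ± 1.16 RPKM in Stage 3+DMSO. PSAT1, of serine synthesis and known as a target of the amino-acid stress response, averaged 18.7 ± 1.24 RPKM under KPT, 184 ± 3.99 RPKM at Stage 1 and 599.7 ± 84.5 RPKM in Stage 3+DMSO, and ASNS, asparagine synthetase, averaged 34.0 ± 1.53 RPKM, 122 ± 4.67 RPKM and 256 ± 23.0 RPKM. Both rose over the untreated course and were below every untreated stage under KPT. In the whole list of integrated stress and unfolded protein response genes 8 of 21 were higher and 12 lower, and those that rose included the endoplasmic reticulum chaperone HSP90B1, at 1027 ± 14.2 RPKM under KPT and 599 ± 26.7 RPKM at Stage 1. Of 30 nuclear genes of the respiratory chain 20 were higher and 3 lower, against 39.4% and 27.4% of all tested genes, with a median of 0.340. Median-ratio rescaling made that 16 and 4 with a median of 0.210. Of 13 genes of the mitochondrial genome 6 were lower and none higher in limma (1 higher at an unadjusted p of 0.05 and 1 in limma-voom on recovered reads), a split that quantile normalization changed to 2 lower and 1 higher.

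**Figure D3:**
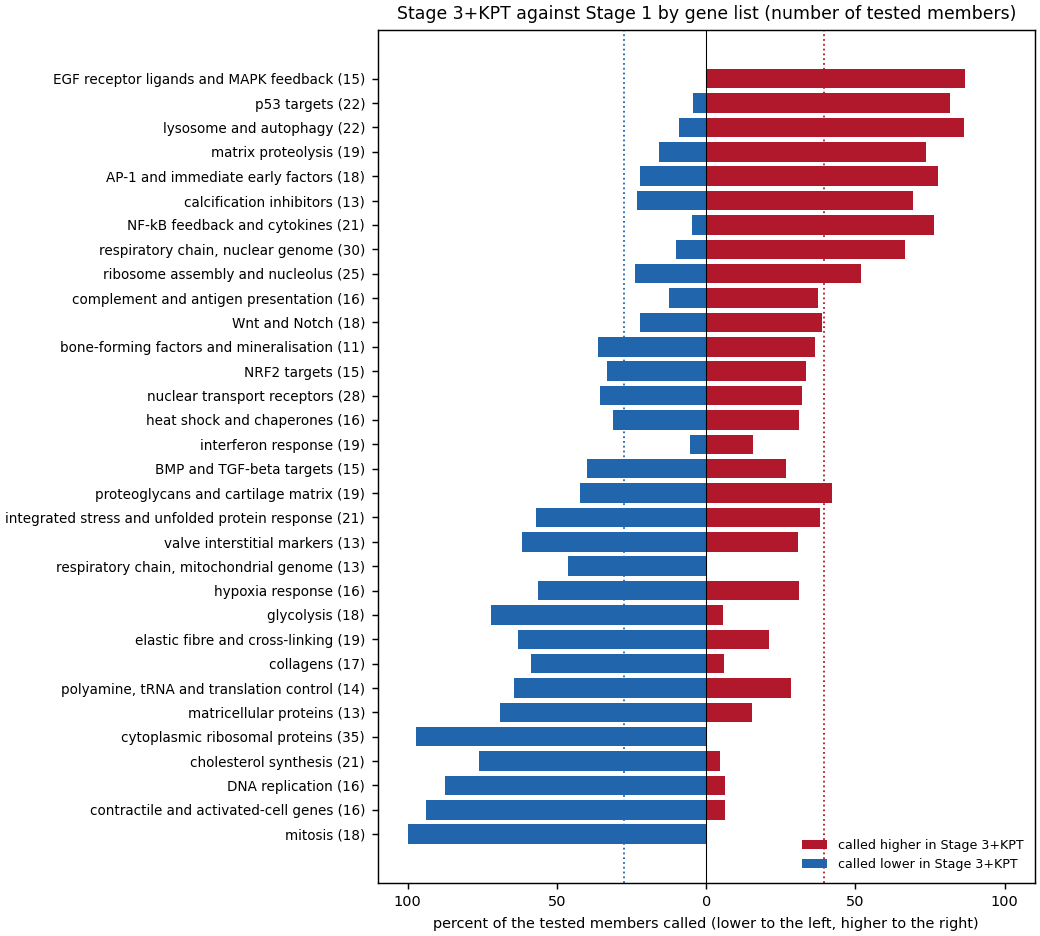
For each gene list with at least 11 tested members, the percent of tested members called higher (red, to the right) and lower (blue, to the left) in Stage 3+KPT than in Stage 1, ordered by the median log2 difference. The dotted lines are the shares over all tested genes, 39.4% higher and 27.4% lower; all 18 mitosis genes were lower, and 13 of 15 EGF receptor ligand and MAPK feedback genes were higher.

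Return to Stage 1 was asked of the 965 genes that had changed by at least 2-fold between Stage 1 and Stage 3+DMSO, 668 upward and 297 downward, here called course genes. Their median log2 difference from Stage 1 was 0.907 under KPT and 1.28 in Stage 3+DMSO for the 668, and -0.889 and -1.26 for the 297. Under KPT 473 of the 668 were still called higher than Stage 1, and 200 of the 297 were still called lower. Only 95 course genes (9.84%) were back at the Stage 1 level, meaning that KPT differed from Stage 3+DMSO in the direction of Stage 1 and that the 95% confidence interval of the difference from Stage 1 lay within 1.5-fold. Another 210 (21.8%) were partly back, 110 (11.4%) were past Stage 1 on its other side, 182 (18.9%) were left at the Stage 3+DMSO level within 1.5-fold, and 212 (22%) had moved further from Stage 1. In all 55 genes met more than 1 of these rules and 211 met none. The differences that define these classes share the Stage 1 libraries and the Stage 3+DMSO libraries, so the counts were not tested. Without Stage 3+DMSO replicate 1 there were 953 course genes, of which 106 were back, 211 partly back, 106 past, 185 left and 214 further, and 75 of the 95 genes back were back in both fits. The counts of genes back and left depended on the bound, at 15 back and 41 left with a tighter bound and 303 and 405 with 2-fold. In limma-voom on recovered reads 332 genes had moved further, and after median-ratio rescaling 61 of the 95 genes back still met the rule. Just inside the bound stood PLA2G16, with an interval of 0.123 to 0.584 on the log2 scale, and just outside it DPP4, with 0.0970 to 0.590, around the limit of 0.585. PLA2G16 was called higher than Stage 1, so a gene back by this rule could still be called different from Stage 1.

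**Figure D4:**
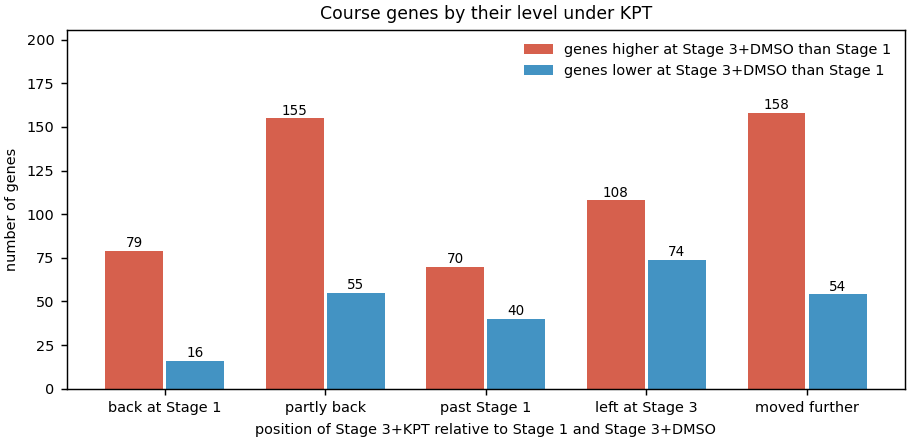
Number of course genes in each class, for genes higher (red) and lower (blue) at Stage 3+DMSO than at Stage 1. For genes higher at Stage 3+DMSO the bars stand at 79 back, 155 partly back, 70 past, 108 left and 158 further, and for genes lower there at 16, 55, 40, 74 and 54.

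Genes back at Stage 1 came mostly from those that rise over the course, 79 of 668 (11.8%), against 16 of 297 (5.39%) from those that fall. ACAT1, a mitochondrial enzyme of ketone and isoleucine breakdown, had 87.1, 83.4 and 78.1 RPKM under KPT, 68.6, 75.5 and 75.8 RPKM at Stage 1 and 279, 233 and 212 RPKM in Stage 3+DMSO. The KPT and Stage 1 values differed by 0.18 on the log2 scale, with a 95% confidence interval of -0.043 to 0.393, and both groups lay far below Stage 3+DMSO. ECM2, an extracellular matrix protein, had 18.2, 16.8 and 16.9 RPKM under KPT, 14.6, 15.7 and 16.0 RPKM at Stage 1 and 74.1, 48.3 and 48.1 RPKM in Stage 3+DMSO, for the more abundant of its 2 entries. XYLT1, the enzyme that starts glycosaminoglycan chains, and SLC29A1, a nucleoside transporter, were also back. XYLT1 averaged 5.63 ± 0.203 RPKM under KPT and 5.43 ± 0.456 RPKM at Stage 1, and SLC29A1 had 13.1, 13.4 and 13.0 RPKM and 11.3, 12.0 and 9.80 RPKM. For ACAT1, ECM2 and SLC29A1 every KPT library still lay above every Stage 1 library. ACAT1 (adjusted p = 0.0377) and SLC29A1 (adjusted p = 0.0425) were called higher in the limma fit of Stage 3+KPT and Stage 1 alone. SLC29A1 was also called higher in limma without Stage 3+DMSO replicate 1 (adjusted p = 0.0277). Among genes that fall over the course, ADM, the vasodilator peptide adrenomedullin, had 31.6, 31.2 and 32.3 RPKM under KPT, 40.2, 39.5 and 33.0 RPKM at Stage 1 and a mean of 13.4 ± 1.38 RPKM in Stage 3+DMSO, with an interval of -0.519 to 0.053. ADM was called lower than Stage 1 after median-ratio rescaling (-0.36, adjusted p = 0.0412 in limma), after quantile normalization (-0.39, adjusted p = 0.0313) and in the fit of both groups alone (-0.23, adjusted p = 0.0297). GALNT15, which starts mucin-type sugar chains, and CRSP-2, a pig peptide of the calcitonin family, stood at 11.1 ± 1.18 and 79.4 ± 2.85 RPKM under KPT, against 10.2 ± 0.0569 and 81.4 ± 3.82 RPKM at Stage 1. Some genes back at Stage 1 were low: 12 of the 95 averaged under 1 RPKM at Stage 1, where the added 1 in log2(RPKM + 1) compresses differences.

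Genes partly back lay between Stage 1 and Stage 3+DMSO. PLXDC1, a plexin-domain membrane protein, had 14.6, 16.4 and 13.7 RPKM under KPT, a mean of 1.35 ± 0.138 RPKM at Stage 1 and 121, 135 and 85.5 RPKM in Stage 3+DMSO. It had the largest rise of the class, and its 3 groups did not overlap. COMP and MATN2, matrix proteins that bridge collagen and other fibres, averaged 2.96 ± 0.471 and 14.1 ± 1.86 RPKM under KPT, 0.551 ± 0.101 and 1.75 ± 0.454 RPKM at Stage 1, and 13.6 ± 2.15 and 30.0 ± 1.84 RPKM in Stage 3+DMSO. Among genes that fall over the course, VEGFA, the growth factor of blood vessels, had 415, 421 and 421 RPKM under KPT, 537, 656 and 585 RPKM at Stage 1 and 139.6, 127 and 152 RPKM in Stage 3+DMSO. Of 18 tested glycolysis genes 8 were course genes, of which 6 were partly back and 2 left at the Stage 3 level, and over the whole list 13 were lower than Stage 1 under KPT and 1, PFKM, was higher (median -0.524 under KPT and -0.871 in Stage 3+DMSO). LDHA, which makes lactate, had 1578 ± 68.8 RPKM under KPT, 2719 ± 55.5 RPKM at Stage 1 and 1092 ± 82.6 RPKM in Stage 3+DMSO. SST, the peptide hormone somatostatin, and GZMA, a granzyme protease, averaged 4.33 ± 0.971 and 8.12 ± 0.982 RPKM under KPT, 14.9 ± 1.87 and 23.5 ± 1.75 RPKM at Stage 1, and 0.917 ± 0.546 and 1.28 ± 0.0664 RPKM in Stage 3+DMSO, GZMA for the more abundant of its 2 entries.

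Genes past Stage 1 crossed to its other side. ELN, elastin, had 4.20, 5.39 and 4.09 RPKM under KPT, 7.98, 8.80 and 8.14 RPKM at Stage 1 and 95.3, 95.4 and 60.7 RPKM in Stage 3+DMSO. MFAP2, a microfibril protein that works with elastin, averaged 9.50 ± 0.952 RPKM under KPT, 15.4 ± 2.13 RPKM at Stage 1 and 99.3 ± 8.96 RPKM in Stage 3+DMSO. ACAN, the large cartilage proteoglycan, had 0.242, 0.337 and 0.520 RPKM under KPT, 1.07, 1.07 and 0.749 RPKM at Stage 1 and 8.41 ± 1.24 RPKM in Stage 3+DMSO. In the other direction MMP1, the interstitial collagenase, had 601, 575 and 572 RPKM under KPT, 73.7, 76.1 and 83.0 RPKM at Stage 1 and 6.46, 8.03 and 10.3 RPKM in Stage 3+DMSO. Its KPT libraries lay above every untreated library, as did those of AREG, EREG, DIO2, PTGS2, CXCL8, NPPB and HSD3B1, which share the class. GREM1, a BMP antagonist, and FGF7, a fibroblast-derived growth factor for epithelia, also crossed, at 35.1 ± 1.60 and 749 ± 56.1 RPKM under KPT, 11.6 ± 1.55 and 443 ± 48.7 RPKM at Stage 1, and 1.67 ± 0.916 and 104 ± 10.6 RPKM in Stage 3+DMSO.

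Genes left at the Stage 3 level held 3 of the 5 course genes among inhibitors of calcification, against 182 of all 965 course genes (18.9%). MGP had 5308, 5574 and 5425 RPKM under KPT, 515, 559 and 571 RPKM at Stage 1 and 3839.8, 4903 and 4392 RPKM in Stage 3+DMSO. It was also called slightly higher than Stage 3+DMSO, so it met the rule for genes moved further as well. GAS6, a vitamin K-dependent ligand of TAM receptors, had 130.5, 157 and 134 RPKM under KPT, 23.1, 24.0 and 24.0 RPKM at Stage 1 and 128, 125 and 160.5 RPKM in Stage 3+DMSO, and FBLN1, a fibulin of elastic and basement membrane matrix, rose by 1.72 on the log2 scale under KPT and 1.34 in Stage 3+DMSO. FBLN1 too met the rule for genes moved further, so 2 of these 3 genes met both rules. Of the 13 tested inhibitors of calcification 9 were higher under KPT than at Stage 1 and 3 lower, with a median of 0.796, against 0.563 in Stage 3+DMSO minus Stage 1. ANKH, which exports pyrophosphate precursors, was higher at 90.2, 98.4 and 104 RPKM under KPT, against 17.7, 16.3 and 16.3 RPKM at Stage 1 and 71.0, 152 and 119 RPKM in Stage 3+DMSO, and it met none of the 5 rules. TNFRSF11B, osteoprotegerin, a decoy receptor that restrains bone resorption, was among those that fell, with 11.5, 11.2 and 11.7 RPKM under KPT and 50.6, 53.6 and 58.3 RPKM at Stage 1. CLU, the extracellular chaperone clusterin, EDNRA, an endothelin receptor, and CHRD, the BMP antagonist chordin, were left at Stage 3 levels after rising, and CLDN6, a claudin, CCBE1, a secreted factor of lymphatic growth, and BNIP3, a hypoxia-induced mitochondrial protein, after falling. CLDN6 had 9.45, 10.7 and 9.92 RPKM under KPT, 43.5, 44.1 and 41.4 RPKM at Stage 1 and 8.24, 9.23 and 8.90 RPKM in Stage 3+DMSO.

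Bone-forming genes did not move as one. Of 11 tested, 4 were higher under KPT than at Stage 1, 4 were lower and 3 did not pass. Over all tested genes 39.4% were higher and 27.4% lower. RUNX2, the master factor of osteoblasts, had 32.0, 30.3 and 36.9 RPKM under KPT, 19.8, 20.6 and 21.0 RPKM at Stage 1 and 9.38, 7.57 and 9.70 RPKM in Stage 3+DMSO, for the more abundant of its 2 entries. It fell over the untreated course and was past Stage 1 under KPT (log2 difference 0.66, SE 0.10, adjusted p = 5.2e-05). BMP2, a bone morphogenetic protein, had 35.8, 36.7 and 39.6 RPKM under KPT, 1.00, 1.98 and 0.858 RPKM at Stage 1 and 2.49, 7.07 and 5.10 RPKM in Stage 3+DMSO. SPP1, osteopontin, did not pass, with 18.3, 17.8 and 19.2 RPKM under KPT and 15.3, 17.6 and 20.7 RPKM at Stage 1 and overlapping groups, and BGLAP, osteocalcin, was low in all, with 0.299, 1.04 and 0.254 RPKM and 3.49, 1.27 and 1.82 RPKM. SOX9, the master factor of cartilage, rose to 62.6 ± 1.75 RPKM under KPT, against 14.7 ± 0.0802 RPKM at Stage 1 and 30.6 ± 3.06 RPKM in Stage 3+DMSO.

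Genes moved further from Stage 1 extended the difference between Stage 1 and Stage 3+DMSO, by a rule that does not use Stage 2. RGS4, POSTN, BMP2, MDM2 and TIMP3 were among those that rose at Stage 3+DMSO and rose more under KPT, and NOTCH3, a Notch receptor of smooth muscle and pericytes, had 52.2, 56.3 and 51.3 RPKM under KPT, 4.81, 3.99 and 3.60 RPKM at Stage 1 and 25.0, 18.5 and 17.0 RPKM in Stage 3+DMSO for the more abundant of its 2 entries. ABCB1, a drug efflux pump, averaged 97.4 ± 2.38 RPKM under KPT, 12.0 ± 0.351 RPKM at Stage 1 and 58.1 ± 15.2 RPKM in Stage 3+DMSO. ACTA2, CNN1, TPM1, DES and ACTG2 were among those that fell further, although DES was higher at Stage 2 than at Stage 1. LOXL4, a cross-linking enzyme, had 11.7, 13.2 and 11.9 RPKM under KPT, 93.5, 91.9 and 94.6 RPKM at Stage 1 and 19.2, 22.3 and 24.8 RPKM in Stage 3+DMSO. Of the 555 genes above every untreated stage, 74 were also in this class and 21 were in the class past Stage 1, and of the 536 below, 27 and 21 were.

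**Figure D5:**
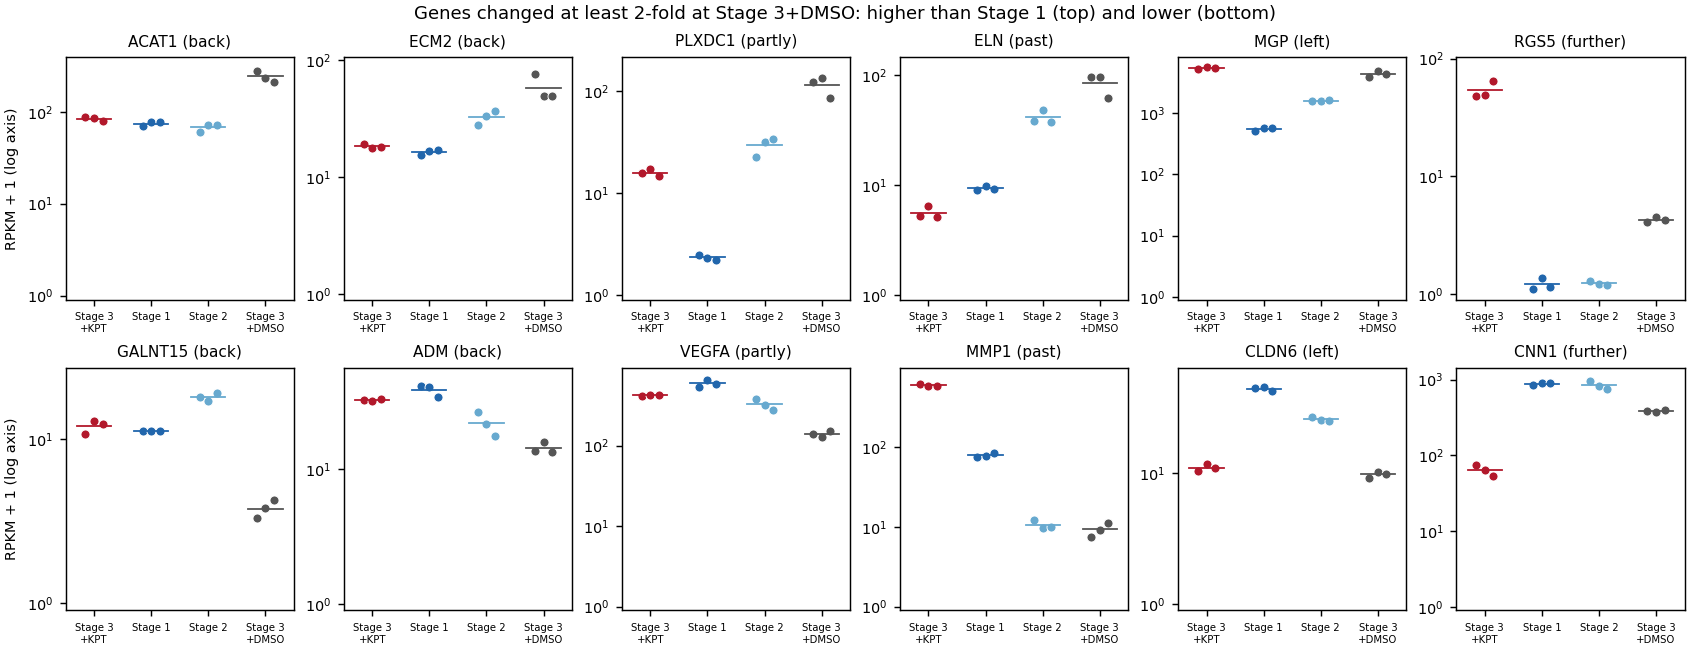
RPKM + 1 on a log axis for 12 course genes, higher at Stage 3+DMSO in the top row and lower in the bottom row, with 1 point a library, the bar at the group mean and Stage 3+KPT leftmost, followed by Stage 1, Stage 2 and Stage 3+DMSO. ACAT1, ECM2, GALNT15 and ADM stand near their Stage 1 levels under KPT, MGP and CLDN6 near their Stage 3+DMSO levels, and ELN and MMP1 on the other side of Stage 1.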

How the data were processed

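The authors deposited RPKM values per gene and per exon for 12 mRNA libraries (TruSeq stranded kit, 500 ng of RNA, per the labels' protocols, and, per the submitters' processing notes, aligned with TopHat2 2.1.0). No source used here gives the counting tool, its use of strand or the genome build. Dividing each deposited RPKM by the value of 1 read gave whole reads for 100% of values within 0.001 read. Reads over genes came to 1.751 to 1.813 times the library total implied by RPKM, for a reason not given. Symbols came from the deposited table for 15203 genes and from ID tables for 1715 and 627, and 561 genes carried a different name in the ID table. limma 3.58.1 in R 4.3.3, with an expression trend, was fitted to log2(RPKM + 1) over all 12 libraries with 1 coefficient a group and no covariate. Fold changes on this scale understate low genes. The fit was tried on simulated data. For the rules of genes back and left, the simulation planted only large changes in well-expressed genes, so it does not cover low or borderline genes. The effects of 22 other fits and of other bounds are in the closing section. Classes, gene lists and named genes were chosen with earlier results of these data known: named genes were drawn from the 15 largest rises and falls and up to 12 genes a class and direction (with at least 5 RPKM in the highest group), up to 4 called list members a direction, and a panel. IFIT1, BUB1B, PLA2G16, DPP4, BTC, TIMP2, SERPINE2, CTSZ and CTSS were chosen after their values were seen. Gene lists were read by counts and medians beside those of all tested genes, with no test of a list.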

Additional observations from a re-analysis of the deposited data

How the results depend on the processing

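Nearly all counts kept their size: of 249 alternative counts and exon ratios 242 lay within 1.5 times the reported count or kept the sign. A count of like size can hold other genes. Of the 95 genes back, 61 stayed back after median-ratio rescaling, 60 after quantile normalization and 61 in limma-voom on recovered reads. The same settings kept 495, 499 and 554 of the 555 genes above and 533, 514 and 533 of the 536 below. With limma-voom on recovered reads 332 genes had moved further from Stage 1. With a tighter interval 15 genes were back and 41 left, and with 2-fold 303 and 405. Requiring a call against each untreated stage at any size gave 2968 genes above and 2110 below. Leaving out 1 library at a time gave 74 to 106 genes back, 483 to 565 above and 528 to 569 below. Quantile normalization put the share of higher genes among those called at 51.1%. Of 148 named genes that were refitted, with 3249 alternative values, 9 changed a call or a direction under any setting. Of these 9, ACAT1, ADM, GALNT15, PLA2G16, SLC29A1 and XYLT1 were genes back at Stage 1. Those of the 9 that reversed were not called and close to 0: GALNT15 at -0.023 with median ratios and -0.008 with quantiles, SPP1 at -0.070 and -0.087, XYLT1 at -0.065 and -0.007, and, without Stage 1 replicate 1, SPP1 at -0.047 and XYLT1 at -0.008, with highest values of 0.160 and 0.095 when another library was left out. The cause was not tested. Same-numbered Stage 3+KPT and Stage 1 libraries deviated from their group means with correlations of 0.0204, 0.0625 and -0.023, so the numbers were not taken to pair them. With the replicate block 8641 genes were called and 90 of the 95 genes back remained so. Levels near 0 RPKM rest on few reads, such as the 2 reads of MKI67 over the KPT libraries, and limit the precision of the lowest values.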

Other observations

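Ligands and antagonists of the TGF-beta and BMP families moved unequally. Of 15 tested targets and regulators 4 were higher under KPT than at Stage 1 and 6 lower, against 39.4% and 27.4% of all genes. TGFB3, a TGF-beta ligand, had 30.6, 33.3 and 30.7 RPKM under KPT and 163, 171 and 167 RPKM at Stage 1, and was below every untreated stage. TGFBI, a matrix protein induced by TGF-beta, fell to 13.4 ± 2.32 RPKM under KPT, against 83.2 ± 7.70 RPKM at Stage 1. In the other direction FST, the activin antagonist follistatin, had 23.3, 23.5 and 19.9 RPKM under KPT and 2.82, 2.82 and 2.28 RPKM at Stage 1, and ID2, a helix-loop-helix inhibitor induced by BMP, averaged 352 ± 17.2 RPKM and 75.7 ± 2.08 RPKM. INHBA, a subunit of activin, rose by 0.49 on the log2 scale under KPT and was lower in Stage 3+DMSO than at Stage 1, by a log2 difference of -0.83.

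In the list of Wnt and Notch genes 7 of 18 were higher and 4 lower, against 39.4% and 27.4% of all tested genes. Median-ratio rescaling made that 5 and 4. SFRP1, a secreted Wnt antagonist, had 1360.3, 1374 and 1375 RPKM under KPT and 317, 327 and 332 RPKM at Stage 1, and TCF7, a transcription factor of the Wnt pathway, had 1.27, 1.27 and 1.09 RPKM and 7.77, 8.08 and 7.91 RPKM. Among 16 complement and antigen presentation genes 6 were higher and 2 lower, again against 39.4% and 27.4% of all tested genes. PSMB8, an immunoproteasome subunit, fell to 10.1 ± 2.20 RPKM under KPT, against 37.6 ± 4.52 RPKM at Stage 1, for the more abundant of its 2 entries. SAT1, the enzyme that breaks down polyamines, was above every untreated stage, with 377, 382 and 383 RPKM under KPT and 64.9, 65.7 and 69.5 RPKM at Stage 1, while SRM and SMS, which make the polyamines spermidine and spermine, fell by 1.08 and 1.16 on the log2 scale. HSPA4L, a chaperone, was above every untreated stage, at 86.6 ± 12.3 RPKM under KPT and 6.60 ± 0.680 RPKM at Stage 1. Of all 16 heat shock and chaperone genes 5 were higher and 5 lower, against 39.4% and 27.4% of all tested genes.

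Gene structure was described from the deposited table, with no test. The median number of exons was 6 for the 555 genes above every untreated stage, 9 for the 536 below and 7 for all tested genes. The median total length of exons per gene was 1892 bases for those above, 1938 bases for those below and 1866 bases for all tested genes. Single-exon genes made up 7.03%, 6.90% and 8.07%. Zinc finger genes, by the table's description, were 6 of the 555, 4 of the 536 and 351 of the 13046, and small nucleolar RNAs were 2, 2 and 181.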
